A study of Rattus norvegicus with 20 samples.

Results

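COPI and COPII trafficking genes encode the coats, small GTPases, cargo receptors, SNAREs and tethers that carry proteins between the endoplasmic reticulum (ER) and the Golgi. The set was a list of 36 gene symbols with known functions in this route. Of these, 34 matched 1 row each by symbol, among 32402 genes in the data, and Sar1a and Copb2 had no row under their symbol and were not analysed here. The 34 comprised 11 genes of the COPII coat and ER exit sites, 10 of the COPI coat and its ARF GTPases, 9 cargo receptors, and 4 SNAREs and tethers, and all 34 passed the filter on low values in every comparison.

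COPII-coated vesicles carry newly made secretory proteins out of the ER, and COPI-coated vesicles return ER residents and receptors from the Golgi. Cargo receptors span the vesicle membrane and link the proteins inside to the coat, while SNAREs and tethers let the vesicle find and fuse with the next compartment. The supraoptic nucleus (SON) is built around large neurosecretory (magnocellular) neurons that pass vasopressin and oxytocin precursors through this route in quantity, and dehydration is a classical stimulus of their secretory activity.

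The measurements were poly(A) RNA-seq of SON punches from 20 male Wistar Han rats, 5 in each of 4 groups. Adult rats were 3 months old and aged rats were 18 months old, and at each age rats were either euhydrated (EH, with free access to water) or dehydrated (DH, with water removed). The treatment text of the labels gives 2 days of dehydration at 18 months of age. It is the same for all 20 rats, EH and adult rats included. Groups were therefore taken from each rat's source name, which gives its age group and hydration. The methods of the study give a longer dehydration. All groups shared strain and sex, and each library was 1 rat. The punch is a core through tissue, so it holds glia, vessels and neighbouring neurons as well as magnocellular neurons. Values are the authors' normalized counts, which are read counts divided by a DESeq2 size factor, and they come in 3 tables that were normalized separately, 1 per comparison. An adult EH or aged EH rat therefore has slightly different values in the 2 tables that hold it.

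The 7 magnocellular markers (Avp, Oxt, Pdyn, Gal, Vgf, Scg2 and Caprin2) summed to between 224028 and 566386 normalized counts in every library, so the defining markers of the labelled tissue were present. Another 5 markers, of neighbouring forebrain neurons, summed to between 849 and 4052. Glial markers were also high, with sums of 227768 to 375953 for 6 oligodendrocyte genes and 100640 to 139496 for 6 astrocyte genes. The magnocellular sum did not overlap between adult DH (335013 to 444547) and adult EH (224028 to 313483), and overlapped between aged DH (355025 to 566386) and aged EH (287172 to 407321). Of the 7, limma called 5 higher in adult DH, 4 higher in aged DH and 4 higher in aged EH than in adult EH. Ageing also went with lower fibroblast and leptomeningeal markers (4 of 5 tested called lower, sum 7070 to 13353 in aged EH and 21120 to 25404 in adult EH, with Col1a2 at 0 in every rat), lower oligodendrocyte markers (4 of 6) and astrocyte markers (2 of 6) and higher microglial markers (3 of 6). In aged DH, 3 of 5 forebrain neuron markers were lower (sum 849 to 1598, against 1665 to 4045 in aged EH), and only 2 of 6 endothelial markers had a row. In bulk tissue, fewer cells of a type and less RNA per cell cannot be told apart, and the part these shifts play in the results that follow was not tested. Normalized counts summed to between 25931931 and 28689164 per library and table. Whole reads were recovered for the adult DH table, the only one for which this was attempted, and summed to between 24268398 and 28491926 per rat.

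Dehydration of adult rats raised 8 of the 34 trafficking genes and lowered 2. Of all 15280 genes tested, 7.67% were called higher and 4.99% lower in adult DH. The 8 were the cargo receptors Tmed3, Lman1, Tmed10, Tmed9 and Tmed2, the COPI genes Cope and Arf4, and the COPII gene Sec13. The 2 were Sec16b and Sec22b. The median log2 fold change (LFC) of the 34 was 0.063, against -0.007 over all genes, and 24 of 34 values were above 0. Calls rest on limma with a Benjamini-Hochberg adjusted p under 0.05 over all genes tested, and LFCs are on the log2 scale of the normalized count plus 1.

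**Figure D1:**
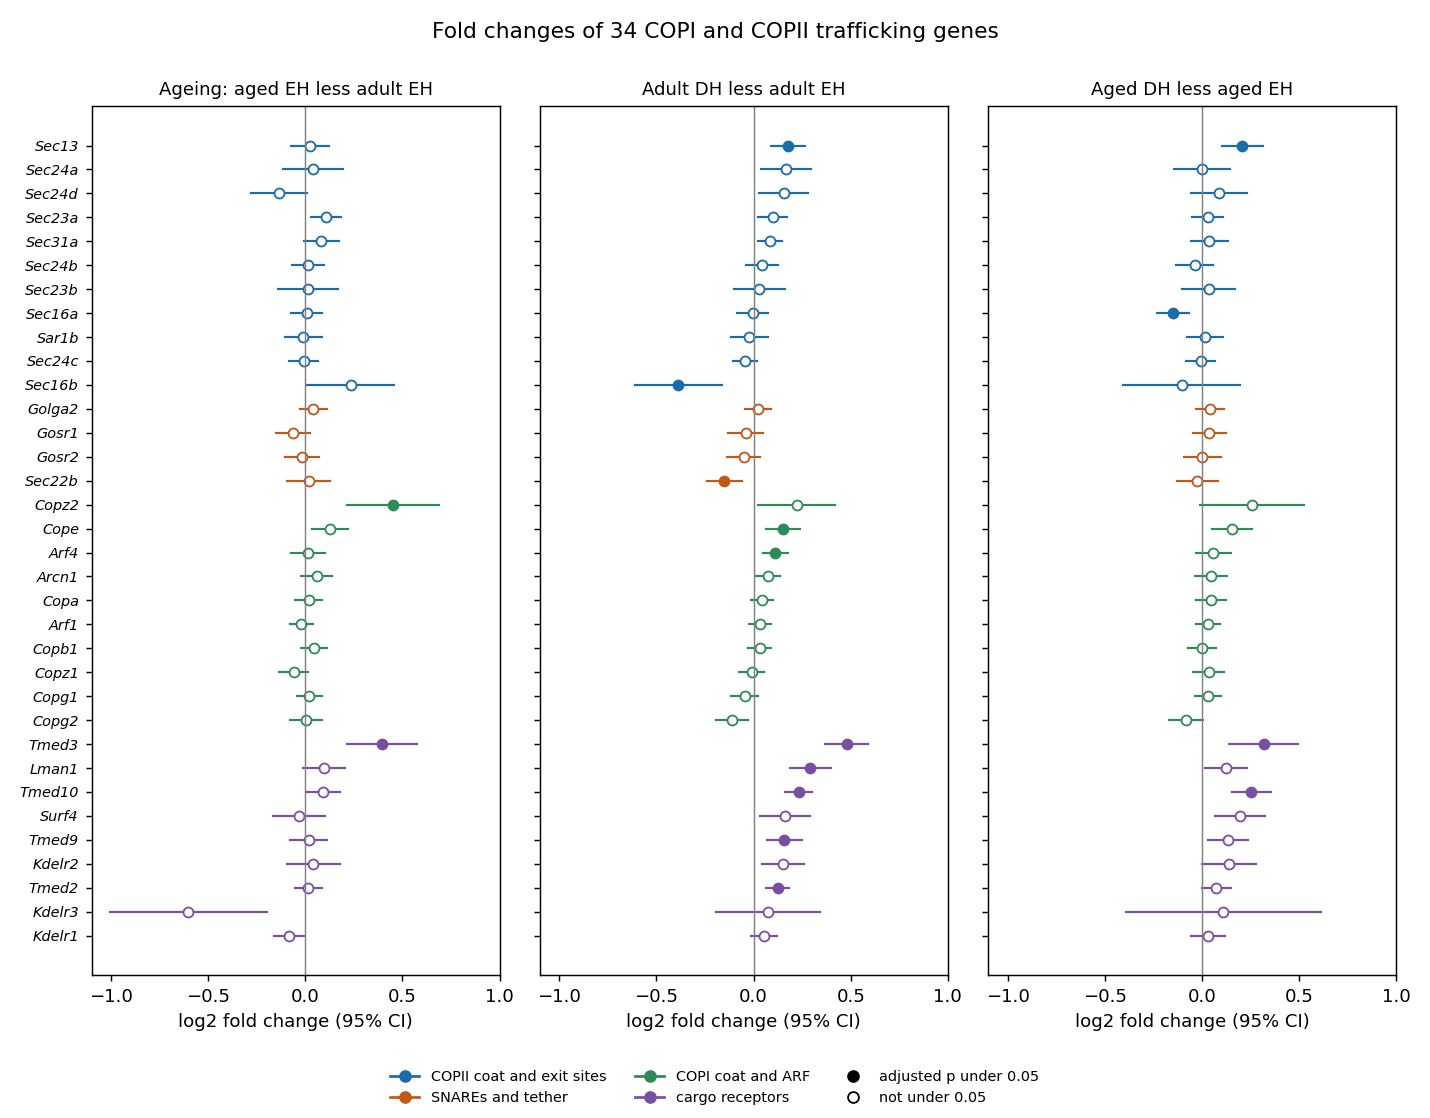
The LFC of each of the 34 genes is plotted with its 95% confidence interval (CI) for ageing (left), adult DH (middle) and aged DH (right), grouped by role and ordered within a role by the adult DH value, and filled points passed the adjusted threshold. All 9 cargo receptors lie above 0 in both DH panels, and Tmed3 is filled in all 3.

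The cargo receptors had the highest median of the 4 roles. All 9 had an LFC above 0 in adult DH, also after scaling to equal sums or quantile normalization, with a median of 0.158 and a range from 0.053 to 0.48, and 5 of 9 were called. By comparison the median was 0.042 for the 11 COPII genes, 0.039 for the 10 COPI and ARF genes and -0.046 for the 4 SNAREs and tethers. After scaling to equal sums the medians were 0.132 for the cargo receptors, 0.016 for the COPII genes, 0.013 for the COPI and ARF genes and -0.072 for the SNAREs and tethers.

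TMED proteins are a family of small membrane proteins that cycle between ER and Golgi and act as cargo receptors, and 4 of them are on the list. Tmed3 stood at 1356, 1242, 1429, 1440 and 1523 normalized counts in the adult EH rats and at 1820, 1938, 2022, 2028 and 1932 in the adult DH rats. Every DH rat lay above every EH rat, with a wide gap between the groups. The mean was 1398 ± 105 and then 1948 ± 84.7 (SD, n = 5). The rise was 39.5% (LFC 0.48, SE 0.0515; limma adjusted p = 4.34e-05). This was the highest LFC among the 34.

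Tmed10 had 3249, 3201, 3351, 3182 and 3415 normalized counts in adult EH and 3746, 3705, 4025, 3854 and 3944 in adult DH. The groups did not overlap, and the rise was 17.5% (LFC 0.23, SE 0.0325; limma adjusted p = 0.000393). Tmed2 had 4092, 4019, 4081, 4252 and 4304 in adult EH and 4467, 4508, 4646, 4526 and 4465 in adult DH. These groups did not overlap either, but the rise was smaller, at 9.02% (LFC 0.12, SE 0.028; limma adjusted p = 0.0106). Tmed9 had 1749, 1703, 1732, 1910 and 1751 in adult EH and 1915, 1879, 1967, 1974 and 2135 in adult DH. Its groups overlapped through adult EH replicate 5 (1910) and adult DH replicate 2 (1879), and the LFC was 0.16 (SE 0.0419; limma adjusted p = 0.025).

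Lman1 encodes a lectin that carries glycoproteins from the ER to the ER-Golgi intermediate compartment. It had 1046, 928.5, 1013, 1058 and 1072 normalized counts in adult EH and 1315, 1283, 1299, 1160 and 1212 in adult DH. All DH rats were above all EH rats, with a rise of 22.5% (LFC 0.29, SE 0.0491; limma adjusted p = 0.0016). Surf4, a receptor for soluble secretory cargo, had an LFC of 0.16 (SE 0.0594; limma adjusted p = 0.0948) and was not called. The KDEL receptors return escaped ER chaperones to the ER, and none of the 3 was called. Their LFCs were 0.053 for Kdelr1, 0.15 for Kdelr2 (limma adjusted p = 0.0706) and 0.073 for Kdelr3. Kdelr2 was called higher by DESeq2 on the recovered reads, and by limma without adult DH replicate 2.

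Sec13, a subunit of the outer COPII cage, had 1019, 1019, 1068, 1061 and 1036 normalized counts in adult EH and 1175, 1197, 1254, 1101 and 1160 in adult DH. The groups did not overlap, and the LFC was 0.18 (SE 0.0397; limma adjusted p = 0.0107). Its partner in the cage, Sec31a, was not called, at 0.085 (SE 0.0291; limma adjusted p = 0.0742). In the inner coat, which selects cargo, 3 of the 6 Sec23 and Sec24 genes had an unadjusted p under 0.05, where 26.9% of all genes did. Their LFCs were positive, at 0.099 for Sec23a, 0.17 for Sec24a and 0.16 for Sec24d. None passed the adjusted threshold (limma adjusted p = 0.0777, 0.0887 and 0.102). Sar1b, the GTPase that starts the COPII coat, had an LFC of -0.021 with a CI from -0.1145 to 0.0717.

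Sec16a and Sec16b encode scaffolds of the ER exit sites where COPII vesicles form. Sec16b had 87.6, 83.8, 99.2, 97.2 and 90.7 normalized counts in adult EH and 65.8, 63.2, 78.5, 71.8 and 70.3 in adult DH. Every DH rat was below every EH rat, and the mean fell from 91.7 ± 6.48 to 69.9 ± 5.9 (SD, n = 5; LFC -0.39, SE 0.105; limma adjusted p = 0.0272). Sec16a, at 4129 ± 136 in adult EH and 4122 ± 199 in adult DH (SD, n = 5), showed an LFC of -0.0034 with a CI from -0.0828 to 0.076.

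Sec22b, a SNARE of transport between ER and Golgi, had 1112, 1073, 1219, 1116 and 1172 normalized counts in adult EH and 1040, 987.4, 1067, 1007 and 1026 in adult DH. The groups did not overlap, though the highest DH rat (1067) came close to the lowest EH rat (1073), and the LFC was -0.15 (SE 0.0419; limma adjusted p = 0.0317). The Golgi SNAREs Gosr1 and Gosr2 and the Golgi tether gene Golga2 had LFCs between -0.0505 and 0.0238 and were not called.

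The COPI coat is formed by the coatomer complex. Cope, its epsilon subunit, had 1813, 1781, 1791, 1761 and 1748 normalized counts in adult EH and 1788, 2112, 2035, 1967 and 1994 in adult DH. Of the DH rats, 4 were above every EH rat and adult DH replicate 1 (1788) lay among the EH rats (LFC 0.15, SE 0.041; limma adjusted p = 0.0271). Arf4, an ARF GTPase of the early secretory pathway, had 3866, 3752, 3808, 3977 and 4144 in adult EH and 4225, 4203, 4254, 4153 and 4289 in adult DH. Its groups did not overlap, although the lowest DH rat (4153) and the highest EH rat (4144) nearly met. The LFC of Arf4 was 0.11 (SE 0.0305; limma adjusted p = 0.0274), and its call was lost after quantile normalization (limma adjusted p = 0.0559). Arf1, the GTPase that recruits coatomer to Golgi membranes, had an LFC of 0.035 with a CI from -0.0219 to 0.0914. The 7 other coatomer genes had LFCs between -0.113 (Copg2) and 0.221 (Copz2) and were not called.

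In all, 19 of the 34 genes had an unadjusted p under 0.05, 16 higher and 3 lower, where 26.9% of all genes did. The call count depended on scaling. When the normalized counts were scaled to equal sums, 5 genes were called higher (Lman1, Sec13, Tmed2, Tmed3 and Tmed10) and 3 lower (Copg2, Sec16b and Sec22b), and the median LFC was 0.037. With the RNA integrity number as a covariate 4 remained, Tmed3, Tmed10, Lman1 and Sec13, all higher. That number was the same in all adult EH rats and equal or lower in the adult DH rats. The covariate is thus partly confounded with dehydration, and why the other calls were lost was not tested. Leaving out 1 rat at a time gave 6 to 11 calls, with 6 without adult DH replicate 5 and without adult EH replicate 4. Lman1, Sec13, Tmed2, Tmed3 and Tmed10 were called without any 1 rat, while Arf4 lost its call without any of 6 rats (adult DH replicates 1, 3 and 5 and adult EH replicates 1, 2 and 4), Cope without any of 6 (adult DH 2, 3 and 5 and adult EH 2, 5 and 6), Sec22b without any of 6 (adult DH 2, 4 and 5 and adult EH 4, 5 and 6), Sec16b without any of 4 (adult DH 1 and 2 and adult EH 4 and 5) and Tmed9 without any of 4 (adult DH 5 and adult EH 1, 2 and 4). The highest adjusted p in these fits was 0.0744, that of Sec22b.

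**Figure D2:**
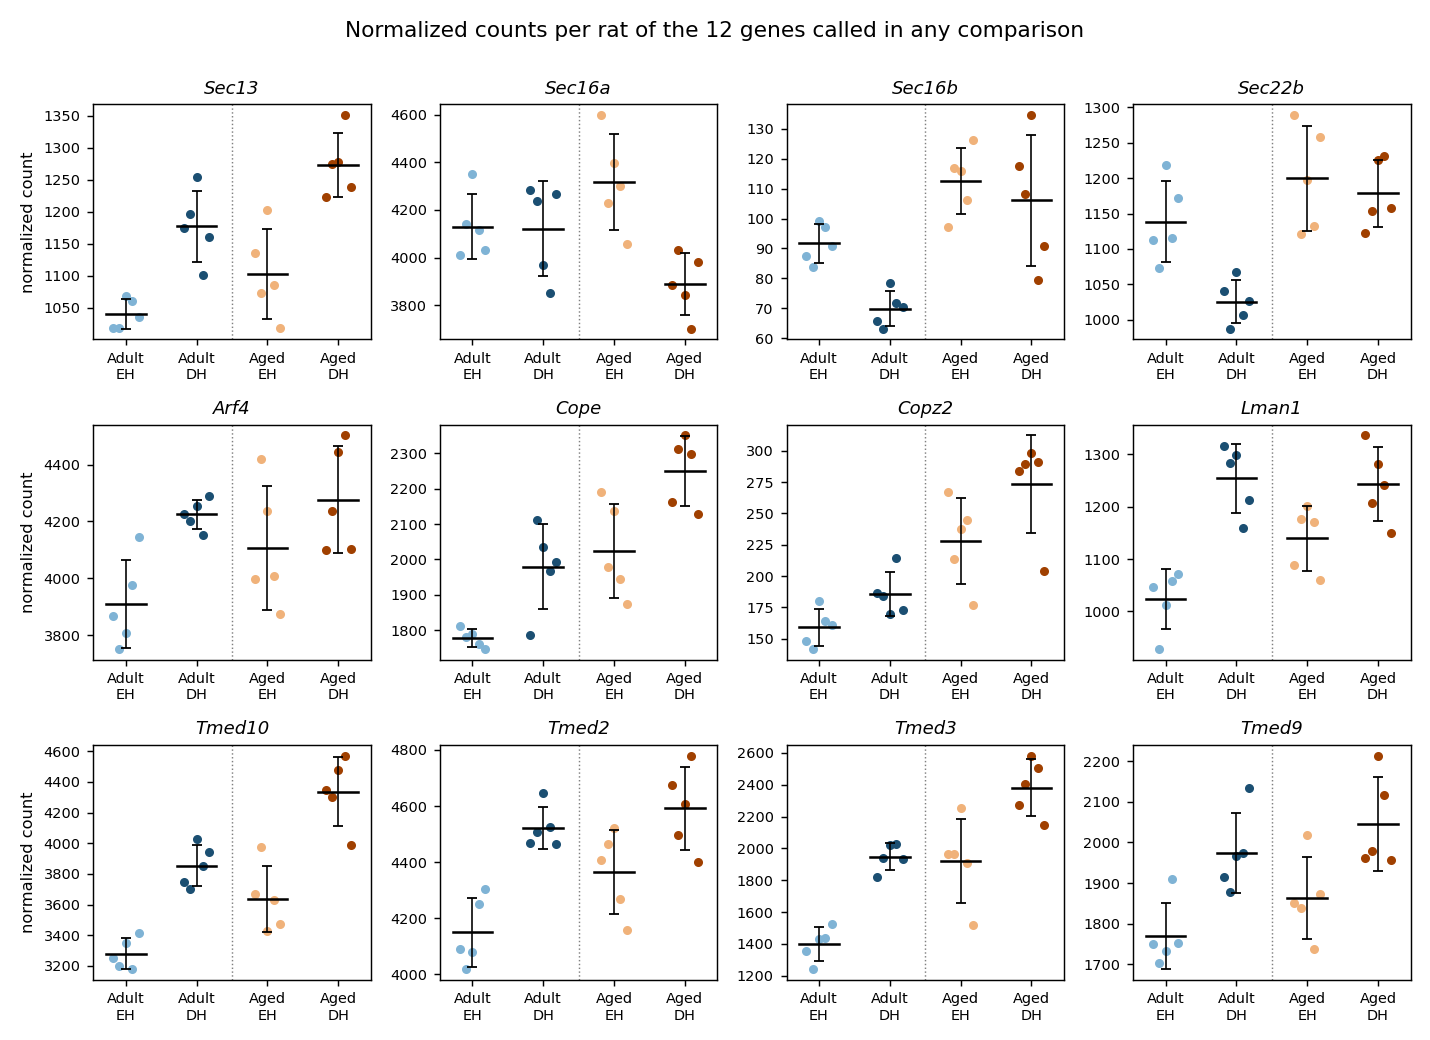
Each point is the normalized count of 1 rat for the 12 genes called in any comparison, with the mean (line) and SD (bars) of 5 rats per group; the adult and aged values come from separately normalized tables, and the vertical axes do not start at 0. Tmed10 and Sec13 show no overlap between EH and DH at either age.

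Promoter sequence was compared because 8 of the genes rose in DH. RefSeq windows (assembly GRCr8) from 250 bases before to 50 after the annotated start were at hand for 30 of the 34 genes, and those of Kdelr2, Sec24c, Sec24d and Surf4 were not used here. They were searched on both strands for ACGTGGC, known as the Golgi apparatus stress response element, for TGACGTGG, an unfolded protein response element, for CCACG, and for the ER stress response element, which is CCAAT and CCACG separated by 9 bases. These overlap, because ACGTGGC and TGACGTGG each contain CCACG on the opposite strand. They also share ACGTGG, so the same site can count for both, and Arf1, Arf4, Kdelr3 and Sec23a were counted under both. ACGTGGC was in 12 of 30 windows (40%), against 2.55% of 27457 RefSeq genes with a window and 3.5% of the 11025 with a window whose symbol was tested in adult DH. It was in 5 of the 8 genes that rose and in 7 of the 22 others (Arcn1, Arf1, Copg1, Copz2, Kdelr3, Sec23a and Sec31a). TGACGTGG was in 6 of 30 windows (20%), against 0.681% of RefSeq genes and 0.916% of those tested, and in 1 of the 8 genes that rose and 5 of the 22 others. CCACG was in 24 of 30 (80%), against 34.1% and 47.1%, and in 6 of the 8 and 18 of the 22. The full ER stress response element was in 0 of 30, in 0.0765% of RefSeq genes and in 0.154% of those tested. A match in a window is a description of its letters only.

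For the genes that rose and hold CCACG, the 30 bases around the match are shown 5′ to 3′ on the strand of the gene, with ACGTGGC on either strand in capitals (for Tmed10, which lacks it, CCACG on the opposite strand).
Tmed3, chr8:99129237-99129266, minus strand: tgctgagctcgcGCCACGTctcttcggagg
Sec13, chr4:148446723-148446752, minus strand: gcgttctgagctGCCACGTccgaggctgtg
Tmed2, chr12:37722654-37722683, minus strand: cgtgcgtccgttACGTGGCagctgtcggct
Tmed9, chr17:9039333-9039362, minus strand: ctccgcaggtctACGTGGCtcggcagtctg
Arf4, chr16:1903417-1903446, plus strand: ggccgccgtgtgACGTGGCacagccgaaca
Tmed10, chr6:110757788-110757817, minus strand: tagaggcgagtcaCGTGGgtttccccggtt
The match ended 59 bases before the start in Tmed2, 57 in Tmed10, 33 in Tmed9 and 1 in Arf4, spanned the start in Sec13, and began at base 24, counted from the start, in Tmed3. The windows of Lman1 and Cope, the other genes that rose, held no match.

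Dehydration of aged rats raised 3 of the 34 genes, Tmed10, Sec13 and Tmed3, and lowered Sec16a. Of all 15346 genes tested, 4.05% were called higher and 3.25% lower in aged DH. The median LFC of the 34 was 0.038, against -0.003 over all genes, and 27 of 34 values were above 0. After scaling to equal sums the median was 0.023, with 25 of 34 above 0, and the same 4 genes were called. An unadjusted p under 0.05 was reached by 9, 8 of them higher, where 21.4% of all genes reached it.

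Tmed10 had 3669, 3979, 3426, 3629 and 3475 normalized counts in aged EH and 4347, 4304, 4477, 4572 and 3986 in aged DH. The groups did not overlap, although the lowest DH rat (3986) and the highest EH rat (3979) nearly met, and the rise was 19.3% (LFC 0.26, SE 0.0465; limma adjusted p = 0.00459). Sec13 had 1136, 1073, 1203, 1085 and 1018 in aged EH and 1223, 1274, 1278, 1351 and 1238 in aged DH. Its groups did not overlap, and the LFC was 0.21 (SE 0.049; limma adjusted p = 0.0194). Tmed3 had 1964, 1966, 2251, 1906 and 1518 in aged EH and 2274, 2405, 2583, 2505 and 2144 in aged DH. Aged EH replicate 4 (2251) was above aged DH replicate 6 (2144), so the groups overlapped, and the LFC was 0.32 (SE 0.0834; limma adjusted p = 0.0333).

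The scaffold gene Sec16a had 4598, 4231, 4395, 4302 and 4057 normalized counts in aged EH and 3886, 4031, 3845, 3702 and 3983 in aged DH. Every DH rat was below every EH rat, and the mean fell from 4317 ± 200 to 3889 ± 128 (SD, n = 5; LFC -0.15, SE 0.0383; limma adjusted p = 0.0298). Its paralogue Sec16b, which fell in adult DH, had an LFC of -0.10 (SE 0.141; limma adjusted p = 0.739) with a CI from -0.4047 to 0.1979.

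All 9 cargo receptors again had LFCs above 0, with a median of 0.134, and 2 of 9 were called. Outside those, Surf4 had 0.20 (SE 0.0607; limma adjusted p = 0.0678), Kdelr2 0.14 (limma adjusted p = 0.227), Tmed9 0.13 (limma adjusted p = 0.109), Lman1 0.13 (limma adjusted p = 0.161) and Tmed2 0.074 (limma adjusted p = 0.242). Among the COPI genes, with a median of 0.041, none was called. Cope had an LFC of 0.15 (limma adjusted p = 0.0709) and Arf4 of 0.059 (limma adjusted p = 0.476). Sec22b had an LFC of -0.024 with a CI from -0.1291 to 0.0809, and the 4 SNAREs and tethers a median of 0.021.

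Without any 1 rat, Tmed10 kept its call in aged DH. Sec13 lost its call without aged DH replicate 5 (limma adjusted p = 0.0599) or aged EH replicate 5 (0.0527), Tmed3 without aged DH replicate 2, 3 or 5 or aged EH replicate 1, 2 or 5 (at most 0.0866), and Sec16a without aged DH replicate 1, 3 or 5 or aged EH replicate 1, 4 or 5 (at most 0.082). Without aged EH replicate 5 or aged DH replicate 5 the count was 1, and without aged DH replicate 3 it was 2.

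Whether adult and aged rats responded differently to DH was tested directly over the 20 rats, as the aged response less the adult response. Limma called 0 of the 34 genes and 0 of 15326 genes tested, 0.0% in either direction. An unadjusted p under 0.05 was reached by 2 of the 34, where 9.93% of all genes reached it. These were Lman1, with a smaller rise in aged rats (difference -0.17, SE 0.0711, CI from -0.3141 to -0.019; limma adjusted p = 0.449), and Sec16a, whose LFC was -0.0034 in adult DH and -0.15 in aged DH (difference -0.15, SE 0.0531, CI from -0.2564 to -0.0363; limma adjusted p = 0.368). For Tmed3 the difference was -0.16 (SE 0.106, CI from -0.3826 to 0.0583; limma adjusted p = 0.652), for Sec16b 0.28 (SE 0.172, CI from -0.0727 to 0.6409; limma adjusted p = 0.614) and for Sec22b 0.13 (SE 0.0632, CI from -0.0054 to 0.2567; limma adjusted p = 0.525). A call in adult DH that was missing in aged DH was thus not shown to be a difference between the ages for any of the 34. Count models were not run on this contrast, because recovery of whole reads was attempted for the adult DH table only.

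**Figure D3:**
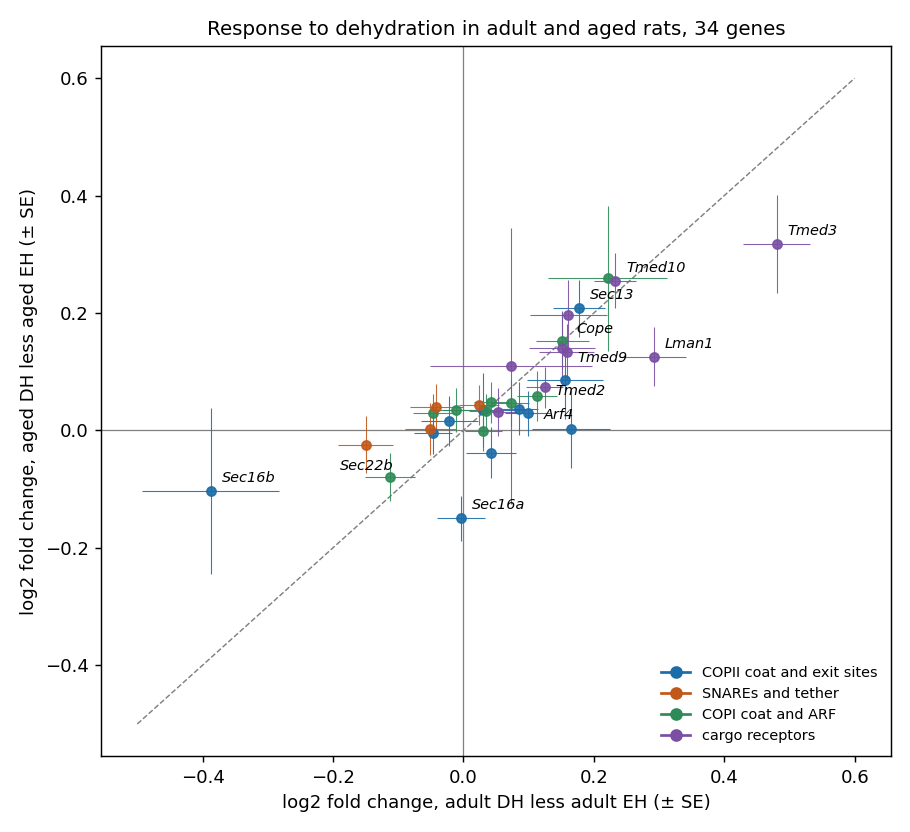
Each point is 1 of the 34 genes, with its LFC in adult DH on the horizontal axis and in aged DH on the vertical axis, bars of 1 SE, a dashed line of equal response and names for the genes called in either. Tmed3 and Lman1 lie to the right of the line, Sec16b is the lowest in adult DH and Sec16a the lowest in aged DH.

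The adult and aged comparisons share no rat. Across the 34 genes their LFCs had a Pearson's r of 0.809 and a Spearman's rho of 0.811, against 0.488 and 0.44 across the 15159 genes tested in both. These are descriptions across genes, which are not independent replicates. The values over all genes take in every gene with a mean of at least 10 and were not matched to the set for count level. Whether the gap is particular to the set was not tested. The sign was the same in 27 of 34 (79.4%, against 66.5% of all genes), and the adult LFC was the larger in absolute size in 23 of 34 (67.6%, against 53.5%).

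In ageing, aged EH rats had higher Tmed3 and Copz2 than adult EH rats, and no gene of the set was called lower. Of all 15369 genes tested, 2.69% were called higher and 3.3% lower in aged EH. The median LFC of the 34 was 0.018, against 0.0 over all genes, and it turned to -0.012 when counts were scaled to equal sums (13 of 34 above 0, against 24 as normalized by the authors). An unadjusted p under 0.05 was reached by 8 of 34, 6 higher and 2 lower, where 20.3% of all genes reached it.

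Tmed3 had 1413, 1292, 1492, 1501 and 1587 normalized counts in adult EH and 1967, 1969, 2252, 1908 and 1528 in aged EH. Of the aged rats, 4 were above every adult rat and aged EH replicate 6 (1528) lay within the adult range. Means were 1457 ± 111 for adult and 1925 ± 259 for aged EH rats (SD, n = 5). The LFC was 0.39 (SE 0.0838; limma adjusted p = 0.0151), and the call was kept without any 1 rat. Since this comparison shares its adult EH rats with the adult DH comparison and its aged EH rats with the aged DH comparison, a chance deviation of those rats enters both. The LFCs of Tmed3 in the 3 comparisons, 0.39, 0.48 and 0.32, are therefore set side by side and not combined.

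Copz2, which encodes a less common form of the zeta subunit of coatomer, had 154.4, 147.7, 187.9, 171 and 168 normalized counts in adult EH and 267.6, 214.2, 238, 244.8 and 177.9 in aged EH. Again 4 aged rats were above every adult rat and aged EH replicate 6 (177.9) was not. The LFC was 0.45 (SE 0.11; limma adjusted p = 0.0295), and the call was lost without adult EH replicate 1, 2, 5 or 6 or aged EH replicate 1, 4 or 5 (adjusted p of 0.0525 to 0.0723). Copz1, the other form of the subunit, had an LFC of -0.060 with a CI from -0.135 to 0.0148. In DH, Copz2 had LFCs of 0.22 in adults (limma adjusted p = 0.138) and 0.26 in aged rats (limma adjusted p = 0.248).

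Kdelr3 had the lowest LFC in ageing, -0.60, at 107 ± 11.8 normalized counts for adult and 72.6 ± 24.3 for aged EH rats (SD, n = 5; SE 0.189; limma adjusted p = 0.0802), and it was called only without aged EH replicate 1 (LFC -0.77; limma adjusted p = 0.0121). It was singled out after its values were seen. Other values with an unadjusted p under 0.05 were those of Cope (0.13; limma adjusted p = 0.102), Sec23a (0.11; limma adjusted p = 0.11), Tmed10 (0.090; limma adjusted p = 0.235), Sec16b (0.23; limma adjusted p = 0.227) and Kdelr1 (-0.083; limma adjusted p = 0.204).

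A list of 85 further genes of ER to Golgi transport was counted in the same fits, and 79 had a row and passed the filter. In adult DH 14 were called higher and 3 lower, where 7.67% and 4.99% of all genes were. In aged DH 10 were called higher and 0 lower (4.05% and 3.25% of all genes), and in ageing 4 higher and 1 lower (2.69% and 3.3%). The medians were 0.045, 0.033 and 0.027. The cargo receptor part of that list also held other transport factors, such as Yif1a. Of its 17 genes, 5 were called higher and 0 lower in adult DH (median 0.123). In aged DH 6 of the 17 were called higher and 0 lower (median 0.1). In adult DH the lowest adjusted p values were those of Ykt6, a fusion SNARE (LFC 0.41; limma adjusted p = 2.91e-05), Ergic1, which cycles between ER and Golgi (0.31; 6.62e-05), and Pdcd6, a calcium-binding partner of Sec31a (0.33; 0.000211). In aged DH they were those of Pdcd6 (0.31; limma adjusted p = 0.00312), Yif1a, a factor of ER to Golgi transport (0.35; 0.00429), and Bcap31 (0.18; 0.00504), the last a membrane protein that escorts cargo out of the ER. In ageing they were those of the fusion factor Napa (0.19; limma adjusted p = 0.028), the Golgi protein Golgb1 (0.13; 0.0299) and the ARF GTPase Arf2 (-0.22; 0.0417).

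Transcription factors known to act on secretory pathway genes were read beside these values. Creb3l1, of the CREB3 family, had 561 ± 90.2 normalized counts in adult EH and 2107 ± 280 in adult DH (SD, n = 5; LFC 1.91; limma adjusted p = 2.32e-07), and 858 ± 254 in aged EH and 2069 ± 379 in aged DH (LFC 1.30; limma adjusted p = 0.000776). The aged response less the adult response was -0.61 (limma adjusted p = 0.383), and its LFC in ageing was 0.52 (limma adjusted p = 0.103). Creb3, of the same family, rose by an LFC of 0.32 in adult DH (limma adjusted p = 5.24e-06) and 0.25 in aged DH (limma adjusted p = 0.011). Atf4 was called higher in adult DH (0.52; limma adjusted p = 4.87e-07), aged DH (0.43; 0.00177) and ageing (0.27; 0.0215), and Atf6 in adult DH (0.14; 0.0251). Xbp1, Creb3l2 and Atf6b were not called in any comparison. The part of these factors in the change of the trafficking genes was not tested.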

How the data were processed

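Poly(A) RNA-seq libraries of 20 rats were analysed from 3 tables, 1 per pair of groups. Per the labels, the authors used FastQC, STAR, featureCounts and DESeq2 (the versions of FastQC, STAR and featureCounts were not given in the sources used here), and the signal in each library's column, as deposited, is its read count divided by a DESeq2 size factor estimated within the table. The assembly used was Rn6, so gene positions are not given, and promoter stretches are in GRCr8. The tables also hold the authors' means, fold changes, standard errors, test statistics and p-values, which were not used. All 30 columns of single libraries were used.

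The tests used log2(normalized count + 1). Genes with a mean of at least 10 were tested with limma 3.58.1 (R 4.3.3), with a trend in the variance prior, two-sided, with p adjusted by Benjamini-Hochberg across all genes tested, a threshold of 0.05 and no LFC filter, as in the study's design of pairs of groups. For the difference between the ages, each rat's value came from the DH table of its age. In the adult DH table all values were whole multiples of 1 step within 0.1 read, and edgeR 4.0.16 and DESeq2 1.42.0 were run on the recovered reads. The fits were also run on simulated counts with the same dispersion for every gene and independent rats, which does not check the variance of the real libraries. Rats are the replicates, and a CI gives the uncertainty of a difference between group means, estimated from the spread between rats. The study housed rats in groups and assigned whole cages to EH or DH. The cage of each rat was not known here, so rats that shared a cage were treated as independent.

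The genes, pathway lists, marker lists and tests were chosen with earlier results of these data known. Values per rat are given for genes called in any test, other members by range, count or beside a called paralogue, and the 3 lowest adjusted p of the pathway list when called. Replicate numbers name different rats: same-numbered rats correlated at -0.083 to 0.162 in their deviations and were not paired. Alternatives were other pseudocounts (0.5 and 10), no filter or a mean of at least 50, scaling to equal sums, quantile normalization, array weights, a replicate block, RNA integrity as a covariate, a minimum absolute LFC of 0.3, and each rat left out. Figures were drawn with matplotlib 3.10.9.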

Additional observations from a re-analysis of the deposited data

Results flagged for a closer look

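Among 32 groups of 5 rats whose values were checked for the genes called in a comparison, 1 rat lay apart. Tmed9 in adult EH replicate 5 stood at 1910 normalized counts, and its gap to the next adult EH rat was 0.768 of the group's range, above the critical value of 0.71. Chance alone marks about 1 in 20 groups. Tmed9 was also called in adult DH without this rat.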

How the results depend on the processing

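The limma calls were repeated under each alternative. In adult DH the 10 calls became 5 with a replicate block, 4 with the RNA integrity covariate and 2 at a minimum absolute LFC of 0.3. They became 6 to 11 with each rat left out, while edgeR gave the same 10 and DESeq2 gave 11, with Kdelr2 added. The median LFC of the 34 genes there was 0.037 after scaling to equal sums and 0.04 to 0.071 with each rat left out. In aged DH the 4 calls became 1 at a minimum absolute LFC of 0.3, 6 with array weights and 1 to 5 with each rat left out. In ageing the 2 calls ran from 1 to 3 with each rat left out. The difference between the ages gave 0 calls throughout. The replicate block, which pairs rats that share only a number, gave 2 calls in ageing and 3 in aged DH.

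Of the values of named members of the set under alternatives, 1120 kept direction and side of the threshold, 64 lost and 15 gained a call, and 8 turned sign, none of them a call. These were Sec16a in adult DH, at 0.001 with the replicate block, 0.01 with RNA integrity, 0.01 without adult DH replicate 3, 0.021 without adult DH replicate 4 and 0.016 without adult EH replicate 4 (-0.018 to 0.021 over all rats left out), Golga2 in adult DH, at -0.002 after scaling to equal sums, Sar1b in adult DH, at 0.001 without adult DH replicate 1 (-0.041 to 0.001 over all rats left out), and Sec22b in aged DH, at 0.002 without aged EH replicate 1 (-0.048 to 0.002 over all rats left out). The causes were not tested. With 5 rats per group the median half-width of the 95% CI of the 34 genes was 0.084 in adult DH and 0.094 in aged DH, which limits what could be called.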
